A study of Mus musculus with 7 samples.

Results

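The Bcl2 family regulators of apoptosis described here are 10 of the 46603 Ensembl genes counted in each library, chosen by name as the genes whose GENCODE M21 symbol is Bcl2, Bcl2l1, Mcl1, Bax, Bak1, Bcl2l11, Bbc3, Pmaip1, Bid or Bad. All 10 symbols matched a single Ensembl gene, and all 10 passed the filter on low counts. The tumors came from mouse embryonic fibroblasts (MEFs) injected into Balb/c nude mice (females aged 16 weeks), which lack a thymus but keep other host cells. The injection site is the right flank in the methods and the mammary pad elsewhere in the study. Both groups carry the CRISPR/Cas9 deletion of nuclear myosin 1 (NM1), an isoform of Myo1c. The KO tumor grew from these NM1 KO cells, and the KO+NM1 tumor from KO cells that received tagged NM1 on a lentivirus, with neomycin selection and testing of single clones. The labels let the experiment run for up to 30 days and give 1 tumor for each condition, divided into 4 pieces, while the methods write of tumors. RNA-seq libraries of 3 KO pieces and 4 KO+NM1 pieces were compared, so that each SD and each test covers the spread between pieces and, with 1 tumor per condition, none between animals.

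The Bcl2 family controls the mitochondrial route to apoptosis. Bcl2, Bcl-XL (the product of Bcl2l1) and Mcl1 keep the outer mitochondrial membrane closed, Bax and Bak (Bak1) open it when activated and let cytochrome c out, and the BH3-only proteins Bim (Bcl2l11), Puma (Bbc3), Noxa (Pmaip1), Bid and Bad set the balance between these groups. Many of these genes are regulated by transcription, among others by p53, which is known to raise Bax, Bbc3 and Pmaip1, and by FOXO factors, which are known to raise Bcl2l11 and Bbc3. B lymphocytes depend on Bcl2 and Mcl1 for survival, and many tumors raise Bcl-XL or Mcl1. Bcl-XL was one of the proteins that the study stained in tumor sections, which makes its transcript a natural question for the libraries. The study describes strong staining in KO tumors and staining of scattered single cells in KO+NM1 tumors.

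Gene counts summed to 24088309 to 28326568 per library, and the members held between 47 counts (Pmaip1 in KO+NM1 piece 02) and 18629 counts (Mcl1 in KO+NM1 piece 01). Myo1c, the targeted gene, lay at 313, 289 and 306 CPM (counts relative to library size, scaled by edgeR's TMM method) in KO pieces 01 to 03 and at 438, 408, 406 and 382 CPM in KO+NM1 pieces 01 to 04, and counts per gene do not separate its isoforms. KO+NM1 piece 01 stood apart. The 10 markers of B and plasma cells summed to 5756 CPM there, against 4.52 to 22.3 CPM in KO+NM1 pieces 02 to 04 and 30.8 to 71.3 CPM in the KO pieces. The summed adipocyte, muscle, macrophage and proliferation markers separated the groups, while the epithelial and fibroblast sums overlapped. White adipocyte markers summed to 51.6 to 216 CPM in the KO pieces and 4589 to 34660 CPM in the KO+NM1 pieces, skeletal muscle markers to 2285 to 19136 and 6.62 to 25.4 CPM, macrophage markers to 3738 to 4277 and 683 to 2559 CPM, epithelial markers to 29.7 to 654 and 436 to 2195 CPM, and proliferation markers to 2246 to 2871 and 33.7 to 185 CPM. Fibroblast markers, the labelled origin of the injected cells, summed to 10012 to 16254 CPM in the KO pieces, 4204 CPM in KO+NM1 piece 01 and 9612 to 15872 CPM in KO+NM1 pieces 02 to 04, and no listed marker of any type was at 0 in every library. Of the tested markers, 10 of 10 adipocyte, 4 of 9 epithelial and 5 of 12 fibroblast markers were lower in the KO tumor, 9 of 9 muscle, 8 of 10 macrophage, 10 of 10 proliferation and 1 of 12 fibroblast markers were higher, and 0 of 10 B and plasma cell markers passed both thresholds. The part of these cell types in the results was not tested, and in pieces of whole tissue fewer cells of a type and less RNA per cell cannot be told apart. The comparison of each member and the counts of each apoptosis list are therefore given with all 7 libraries and without KO+NM1 piece 01. Single genes of the other lists are given with all 7 libraries.

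With all 7 libraries, Bak1 was higher and Bcl2 and Bbc3 were lower in the KO tumor by edgeR's quasi-likelihood test, with thresholds of 0.05 on the adjusted p and 2 on the fold. That is 1 of 10 members higher and 2 of 10 lower, where 17.1% of the 16887 genes tested were higher and 20.3% lower, so the members' shares lay near or below the background of these tumors. By the adjusted p alone the members called were these same 3, against 25.7% of all genes higher and 24.5% lower. The median log2 fold change of the members, KO minus KO+NM1, was 0.38, and that of all genes tested was -0.0017. Without KO+NM1 piece 01, Bak1, Pmaip1 and Bid were higher and Bcl2 and Bbc3 lower past both thresholds, 3 and 2 of 10 members, where 21.7% and 25.1% of all genes passed. By the adjusted p alone 5 members were then higher, Bax and Bcl2l11 being added, and 3 lower, Bcl2l1 being added, against 35.8% and 36% of all genes. Ranges of the 2 groups were separate for 3 members with all libraries, where 57% of all genes did not overlap, and for 9 members without KO+NM1 piece 01, where 77.9% did not.

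**Figure D1:**
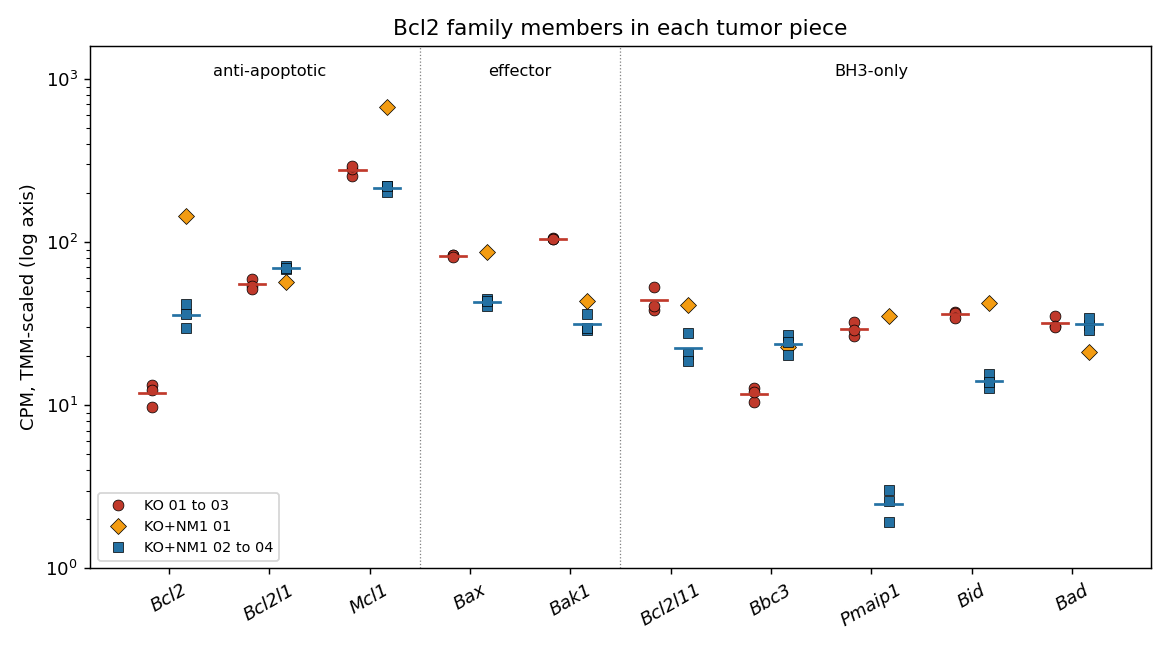
Level of each of the 10 members (CPM, TMM-scaled, log axis) in every piece, with red circles for KO pieces, an orange diamond for KO+NM1 piece 01, blue squares for KO+NM1 pieces 02 to 04, and lines at the mean of the 3 KO pieces and of KO+NM1 pieces 02 to 04. The diamond lies apart from the blue squares for Bcl2, Mcl1, Bax, Pmaip1 and Bid, and for Bak1 and Bbc3 it lies on the side of the squares.

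Among the anti-apoptotic genes, Bcl2 was lower in the KO tumor. Bcl2l1 and Mcl1 did not pass the quasi-likelihood test with TMM scaling and all libraries. Bcl2 (ENSMUSG00000057329, chromosome 1, 106538178 to 106714274, minus strand, GRCm38) lay at 9.77, 13.2 and 12.4 CPM in KO pieces 01 to 03, and at 145, 36.0, 29.7 and 41.6 CPM in KO+NM1 pieces 01 to 04. The groups were separate, with the KO pieces lower, and KO+NM1 piece 01, the piece with the B cell transcripts, was by far the highest. The fitted change was 5.33-fold lower in the KO pieces (log2 fold change -2.41, standard error 0.57, adjusted p = 0.0159). Without KO+NM1 piece 01 it was 3.30-fold lower (log2 fold change -1.72, standard error 0.17, adjusted p = 0.000145). B and plasma cell markers summed to 4.52 to 22.3 CPM in these 3 KO+NM1 pieces and to 30.8 to 71.3 CPM in the KO pieces. Their part in the Bcl2 difference was not tested. Without KO piece 01 the adjusted p of Bcl2 was 0.0569.

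Bcl2l1 (ENSMUSG00000007659, chromosome 2, 152780668 to 152831728, minus strand) lay at 59.5, 54.2 and 51.8 CPM in the KO pieces and at 57.2, 71.5, 68.1 and 69.6 CPM in the KO+NM1 pieces. KO+NM1 piece 01 fell within the range of the KO pieces and the other KO+NM1 pieces lay above it. The log2 fold change was -0.27 (95% interval -0.58 to 0.03, adjusted p = 0.123). Without KO+NM1 piece 01 it was -0.46 (95% interval -0.66 to -0.27, adjusted p = 0.00204), a 1.38-fold lower level in the KO pieces that stayed under the 2-fold threshold. These values depend on the scaling, and the log2 fold change of Bcl2l1 was -0.08 with library size alone (adjusted p = 0.691) and -0.43 with the upper quartile (adjusted p = 0.0322), where the median of all genes moved to 0.17 and -0.16. With all libraries Bcl2l1 was also lower in the KO pieces by the DESeq2 Wald test (log2 fold change -0.37, adjusted p = 0.0236). The same held for voom (log2 fold change -0.39, adjusted p = 0.0012). The transcript was not higher in the KO pieces in any of these fits, while the study reports the stronger Bcl-XL stain in KO tumors. RNA and protein are different measures.

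Mcl1 (ENSMUSG00000038612, chromosome 3, 95658788 to 95663176, plus strand), whose protein is short-lived, was the most abundant member in CPM. It lay at 255, 281 and 295 CPM in the KO pieces, at 679 CPM in KO+NM1 piece 01 and at 221, 204 and 222 CPM in KO+NM1 pieces 02 to 04. KO+NM1 piece 01 was above every other piece, and the other 3 were below every KO piece. The direction therefore turned with that piece, from a log2 fold change of -0.26 with all libraries (95% interval -1.35 to 0.82, adjusted p = 0.666) to 0.23 without it (95% interval -0.01 to 0.47, adjusted p = 0.0746).

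Of the pore-forming genes, Bak1 was higher in the KO tumor past both thresholds with and without KO+NM1 piece 01, and Bax passed the adjusted p only in the fit without it. Bak1 (ENSMUSG00000057789, chromosome 17, 27019810 to 27029009, minus strand) lay at 106, 104 and 105 CPM in the KO pieces, and at 43.8, 36.2, 29.0 and 29.6 CPM in the KO+NM1 pieces. The KO pieces were nearly level and no KO+NM1 piece came near them. The change was 3.03-fold (log2 fold change 1.60, standard error 0.17, adjusted p = 0.000711), and 3.04-fold without KO+NM1 piece 01 (log2 fold change 1.61, standard error 0.10, adjusted p = 2.06e-05). In the annotation, 18.2% of the exon bases of Bak1 overlap an exon of Ggnbp1 on the opposite strand, and the strand setting of the counting is not given in the sources used here.

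Bax (ENSMUSG00000003873, chromosome 7, 45461697 to 45466898, minus strand) lay at 83.0, 83.1 and 81.3 CPM in the KO pieces, at 87.2 CPM in KO+NM1 piece 01 and at 45.0, 40.7 and 43.7 CPM in KO+NM1 pieces 02 to 04. KO+NM1 piece 01 was at the level of the KO pieces, or slightly above, and the other 3 formed a group far below. With all libraries the log2 fold change was 0.61 (95% interval -0.06 to 1.28, adjusted p = 0.114). It was 0.81 without KO+NM1 piece 01 (95% interval 0.63 to 0.99, adjusted p = 0.0001), or 1.75-fold, below the 2-fold threshold.

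**Figure D2:**
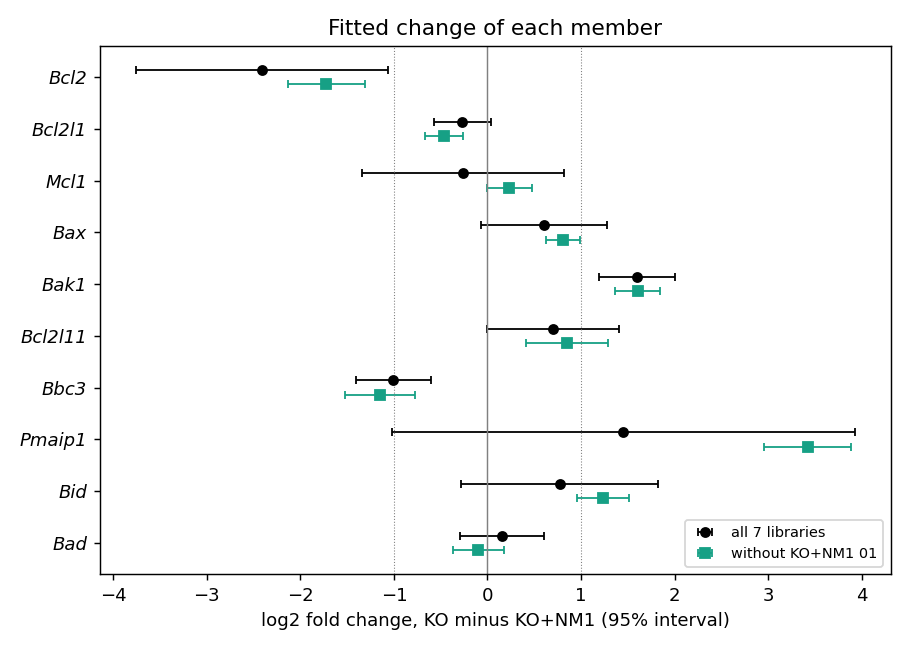
Fitted log2 fold change of each member, KO minus KO+NM1 (horizontal axis), with its 95% interval, from all 7 libraries (black circles) and without KO+NM1 piece 01 (green squares), with dotted lines at a 2-fold change. The intervals of Mcl1, Pmaip1 and Bid are several times narrower without that piece, and those of Bak1, Bcl2 and Bbc3 exclude 0 in both fits.

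The BH3-only genes did not move as a group. Bbc3 was lower in the KO tumor, Pmaip1 and Bid passed both thresholds as higher only without KO+NM1 piece 01, Bcl2l11 passed only the adjusted p without it, and Bad did not pass in either fit. Bbc3 (ENSMUSG00000002083, chromosome 7, 16308393 to 16318205, plus strand), the gene of Puma, lay at 10.4, 12.7 and 12.1 CPM in the KO pieces and at 22.7, 26.9, 24.5 and 20.2 CPM in the KO+NM1 pieces. The groups did not overlap, and KO+NM1 piece 01 lay among the other KO+NM1 pieces. The change was 2.01-fold lower (log2 fold change -1.004, standard error 0.17, adjusted p = 0.00345), just past the 2-fold threshold. Without KO+NM1 piece 02 the log2 fold change was -0.95 (adjusted p = 0.0122) and with library size alone -0.81 (adjusted p = 0.0124), both under 2-fold, and without KO+NM1 piece 01 it was -1.15 (adjusted p = 0.000603).

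Pmaip1 (ENSMUSG00000024521, chromosome 18, 66458533 to 66465565, plus strand) is the gene of Noxa, which chiefly binds Mcl1. It lay at 32.3, 26.5 and 29.0 CPM in the KO pieces, at 35.3 CPM in KO+NM1 piece 01 and at 1.91, 2.57 and 3.00 CPM in KO+NM1 pieces 02 to 04. KO+NM1 piece 01 was above every KO piece and the other KO+NM1 pieces were near the bottom of the family. With all libraries the log2 fold change was 1.45 (95% interval -1.03 to 3.92, adjusted p = 0.285), and without KO+NM1 piece 01 it was 3.42 (95% interval 2.96 to 3.88, adjusted p = 1.65e-05), a 10.7-fold higher level in the KO pieces and the largest change of a member in that fit.

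Bid (ENSMUSG00000004446, chromosome 6, 120891930 to 120916853, minus strand), which links death receptors to the mitochondrial route once caspase 8 cleaves it, followed the same layout. It lay at 37.6, 36.6 and 34.3 CPM in the KO pieces, at 42.6 CPM in KO+NM1 piece 01 and at 15.6, 12.7 and 13.8 CPM in KO+NM1 pieces 02 to 04. KO+NM1 piece 01 was again above the KO pieces. The log2 fold change was 0.77 with all libraries (95% interval -0.28 to 1.82, adjusted p = 0.187) and 1.24 without KO+NM1 piece 01 (95% interval 0.96 to 1.51, adjusted p = 0.000103), or 2.36-fold. Of the exon bases of Bid, 17.7% overlap Bcl2l13, another gene of the family, on the opposite strand. For Bad 20.5% overlap Gpr137 and for Bcl2 6.1% overlap D630008O14Rik, also on the opposite strand.

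Bcl2l11 (ENSMUSG00000027381, chromosome 2, 128126038 to 128162547, plus strand), the gene of Bim, lay at 53.1, 38.5 and 40.7 CPM in the KO pieces and at 41.5, 20.6, 18.7 and 27.8 CPM in the KO+NM1 pieces. Only KO+NM1 piece 01 reached the range of the KO pieces. The log2 fold change was 0.70 with all libraries (95% interval -0.01 to 1.41, adjusted p = 0.0896) and 0.85 without that piece (95% interval 0.41 to 1.29, adjusted p = 0.0051). Bad (ENSMUSG00000024959, chromosome 19, 6941861 to 6951899, plus strand), which binds Bcl2 and Bcl-XL and is held inactive by phosphorylation, lay at 35.3, 30.6 and 30.3 CPM in the KO pieces and at 21.1, 31.0, 34.2 and 29.0 CPM in the KO+NM1 pieces. The groups overlapped with and without KO+NM1 piece 01, the lowest piece. Its log2 fold change was 0.15 (95% interval -0.30 to 0.60, adjusted p = 0.532) and -0.10 without that piece (95% interval -0.37 to 0.18, adjusted p = 0.472), and the sign also turned with the upper quartile as scaling (-0.0098).

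To compare genes with each other, CPM was divided by the exon length in kilobases (RPKM). In the KO pieces Mcl1 was the highest member at 81.0 ± 5.91 RPKM (SD, n = 3), followed by Bax at 52.3 ± 0.667 and Bak1 at 43.6 ± 0.381 RPKM (SD, n = 3), and none of these 3 overlapped its neighbour in the order. Bad, Bcl2l1, Pmaip1 and Bid followed between 10.2 and 12.5 RPKM, each overlapping the next. Bbc3 and Bcl2l11 came next at 5.53 and 5.50 RPKM, without separation from each other, and Bcl2 was last at 1.29 ± 0.199 RPKM (SD, n = 3). In KO+NM1 pieces 02 to 04 Mcl1 also led, at 63.2 ± 2.94 RPKM (SD, n = 3), and Bax followed at 27.4 ± 1.40 RPKM (SD, n = 3). Bcl2l1, Bak1, Bad and Bbc3 then lay between 11.2 and 15.2 RPKM, each overlapping the next, and Bid, Bcl2 and Bcl2l11 between 2.79 and 3.96 RPKM, again overlapping. Pmaip1 closed the order at 0.913 ± 0.201 RPKM (SD, n = 3). In KO+NM1 piece 01 the leading values were 199 RPKM for Mcl1, 55.3 for Bax and 18.2 for Bak1, and Bcl2 reached 15.8 RPKM, above Bcl2l1 at 12.5 RPKM.

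The make-up of the anti-apoptotic transcripts differed accordingly. Mcl1 made up 84.2%, 86.1% and 87.2% of the summed RPKM of Bcl2, Bcl2l1 and Mcl1 in KO pieces 01 to 03, 87.6% in KO+NM1 piece 01 and 76.7% to 76.8% in KO+NM1 pieces 02 to 04. The share of Bcl2l1 was 11.4% to 14.6% in the KO pieces, 5.50% in KO+NM1 piece 01 and 17.9% to 19.1% in the others. Bcl2 held 1.20% to 1.52% in the KO pieces and 4.16% to 6.95% in the KO+NM1 pieces, and here KO+NM1 piece 01 lay on the side of its group.

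Ratios of members within a library do not depend on the scaling between libraries. They are given as a description, without a test. Bax to Bcl2 stood at 49.4, 36.5 and 37.9 in the KO pieces and at 3.505, 7.26, 7.97 and 6.11 in the KO+NM1 pieces, without overlap. Bcl2l11 to Mcl1, the ratio of Bim to an inhibitor that holds it, was 0.0886, 0.0584 and 0.0588 in the KO pieces and 0.0260, 0.0396, 0.0389 and 0.0534 in the KO+NM1 pieces, also without overlap but with KO piece 02 and KO+NM1 piece 04 close together. For Bax to Bcl2l1, the KO pieces at 4.06, 4.46 and 4.56 held the value of KO+NM1 piece 01, 4.43, and KO+NM1 pieces 02 to 04 lay between 1.74 and 1.83. Bcl2l1 to Mcl1 ran from 0.131 to 0.174 in the KO pieces and from 0.234 to 0.248 in KO+NM1 pieces 02 to 04, with KO+NM1 piece 01 below both at 0.0628. The summed effectors, Bax and Bak1, stood at 0.962 to 1.09 of the summed anti-apoptotic RPKM in the KO pieces, at 0.324 in KO+NM1 piece 01 and at 0.473 to 0.517 in KO+NM1 pieces 02 to 04. For the 5 BH3-only genes the same ratio was 0.434 to 0.538, 0.216 and 0.346 to 0.407.

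**Figure D3:**
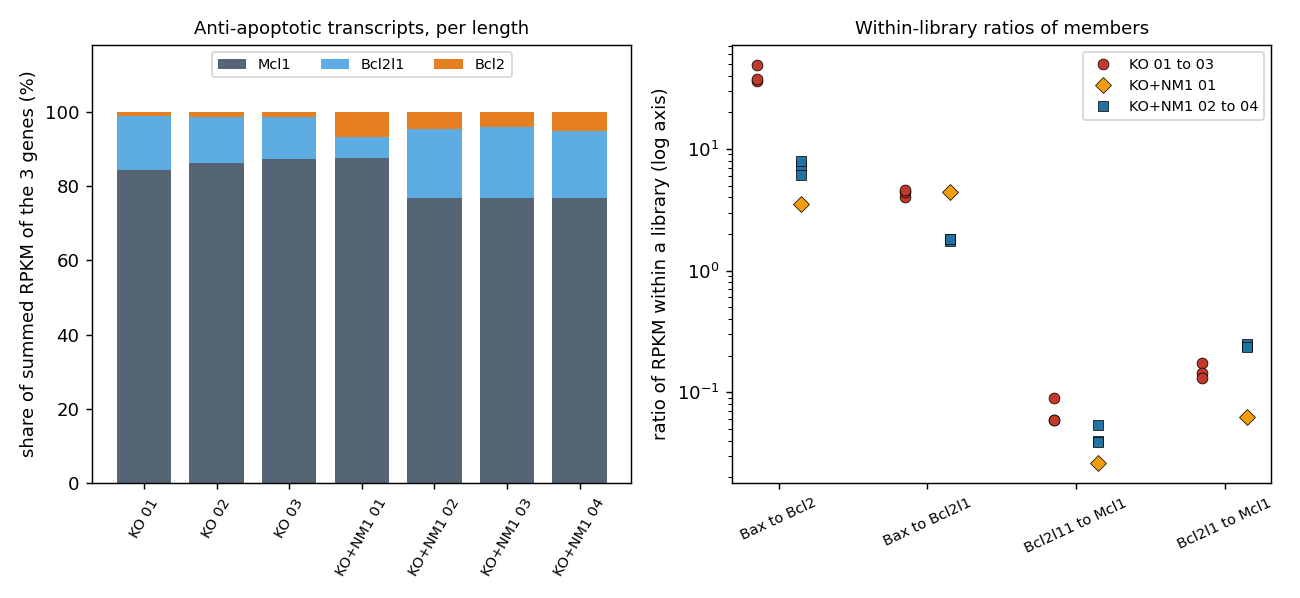
Left, the share of Mcl1, Bcl2l1 and Bcl2 in their summed RPKM (percent, stacked bars from 0) in each piece. Right, 4 ratios of members within a library (RPKM over RPKM, log axis), with red circles for KO pieces, an orange diamond for KO+NM1 piece 01 and blue squares for KO+NM1 pieces 02 to 04, where Bax to Bcl2 separates the groups and Bax to Bcl2l1 places the diamond among the circles.

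The search of promoters for motifs left out Pmaip1, so the counts of matches below do not cover this gene. The start sites of the other 9 members were taken from the RefSeq promoter table (GRCm38.p6), with 15 promoters in all. Each promoter ran from 250 bases before to 50 bases after the start. Each was searched on both strands for the GC box GGGCGG, for FOXO (GTAAACA), for E2F (TTTCCCGC, TTTGGCGC or TTTCGCGC), for the cAMP response element (TGACGTCA) and for p53. Of 32817 promoters in the table, 35.6% held a GC box, 3.65% the FOXO motif, 1.84% an E2F motif, 1.79% the cAMP response element and 0.0731% the p53 motif. Shown are the called member with the largest fall (Bcl2), the called member that rose (Bak1) and the first promoter of Bcl2l11, with the letters of any matched motif in capitals.
Bcl2, chr1:106714241-106714540, minus strand: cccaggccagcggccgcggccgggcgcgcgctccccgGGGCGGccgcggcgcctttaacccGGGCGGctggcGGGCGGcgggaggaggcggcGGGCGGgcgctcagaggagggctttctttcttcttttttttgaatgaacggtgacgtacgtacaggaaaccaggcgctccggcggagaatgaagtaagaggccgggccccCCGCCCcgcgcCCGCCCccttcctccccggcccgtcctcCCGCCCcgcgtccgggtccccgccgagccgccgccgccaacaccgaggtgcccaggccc
Bak1, chr17:27028578-27028877, minus strand: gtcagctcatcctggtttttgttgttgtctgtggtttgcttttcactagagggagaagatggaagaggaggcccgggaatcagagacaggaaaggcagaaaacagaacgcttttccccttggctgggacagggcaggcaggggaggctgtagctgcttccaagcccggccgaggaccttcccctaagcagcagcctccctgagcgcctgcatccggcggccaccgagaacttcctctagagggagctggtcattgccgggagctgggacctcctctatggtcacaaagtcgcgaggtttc
Bcl2l11, chr2:128125788-128126087, plus strand: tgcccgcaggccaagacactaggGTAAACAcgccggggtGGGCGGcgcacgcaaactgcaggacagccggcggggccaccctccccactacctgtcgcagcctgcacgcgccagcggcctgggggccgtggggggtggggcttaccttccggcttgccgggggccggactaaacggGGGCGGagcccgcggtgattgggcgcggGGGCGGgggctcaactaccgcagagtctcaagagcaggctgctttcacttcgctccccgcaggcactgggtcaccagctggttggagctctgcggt
The Bcl2 promoter held 7 GC boxes and none of the other motifs, that of Bak1 held none of the 5 motifs, and that of Bcl2l11 held 3 GC boxes and 1 FOXO motif. The second promoter of Bbc3 held the other FOXO match of the 9 members searched and the second of Bcl2l1 their only E2F match. Of the 15 promoters, 0 held the cAMP response element or the p53 motif. A match is a description of the letters and not evidence of a bound factor.

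Of the other members of the family, 15 were listed and 13 tested. Past both thresholds 6 fell and 0 rose in the KO tumor, against 20.3% of all genes lower and 17.1% higher, with a median log2 fold change of -0.91. Leaving out KO+NM1 piece 01 gave 7 lower and 3 higher, against 25.1% and 21.7% of all genes. The 2 largest fitted falls were those of Bcl2l10 and Bnip3. Bcl2l10 had 3 counts in all over the KO pieces and 69 over the KO+NM1 pieces, a ratio of 21.2 with a 95% exact binomial interval of 6.96 to 105 that covers counting error only (adjusted p = 0.0273). Its adjusted p was 0.0772 without KO piece 02, 0.0832 without KO piece 03, 0.0639 with glmTreat and 0.169 with the replicate block. It did not pass the filter on low counts in 4 of the 17 alternatives, 3 of them without KO+NM1 piece 02, 03 or 04. Bnip3, a mitophagy receptor that hypoxia induces, lay at 26.4, 41.8 and 42.3 CPM in the KO pieces and at 58.8, 382, 368 and 278 CPM in the KO+NM1 pieces (log2 fold change -2.88, standard error 0.57, adjusted p = 0.00887). The other 4 lower genes, Bmf, Bcl2l2, Bik and Bcl2l14, were named after their values were seen. Bmf, a BH3-only gene, lay at 10.5 to 11.2 CPM in the KO pieces and 46.7 to 67.4 CPM in the KO+NM1 pieces (log2 fold change -2.36, standard error 0.16, adjusted p = 0.000281). Bcl2l2, the gene of the anti-apoptotic Bcl-w, lay at 23.6 to 29.4 CPM and 44.0 to 100 CPM (log2 fold change -1.57, standard error 0.28, adjusted p = 0.00452). The 3 higher genes without KO+NM1 piece 01 were the near-identical copies Bcl2a1a, Bcl2a1b and Bcl2a1d, which encode an anti-apoptotic protein of leukocytes and whose reads the counting could split. Bcl2a1a lay at 7.57, 7.92 and 9.01 CPM in the KO pieces, at 21.6 CPM in KO+NM1 piece 01 and at 0.529, 0.346 and 0.576 CPM in the others, in pieces whose macrophage markers summed to 3738 to 4277, to 2559 and to 683 to 933 CPM.

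Downstream of the members, all 16 listed genes of the apoptosome and the caspases were tested. Past both thresholds 4 rose and 1 fell in the KO tumor, against 17.1% of all genes higher and 20.3% lower, with a median log2 fold change of 0.26. Birc5, the gene of survivin, which also works in mitosis, had the largest rise, from 2.32 to 8.13 CPM in the KO+NM1 pieces to 137 to 161 CPM in the KO pieces (log2 fold change 5.16, standard error 0.45, adjusted p = 0.000529), beside 10 of 10 proliferation markers higher. Apaf1, the scaffold of the apoptosome, named after its values were seen, lay at 106, 92.0 and 104 CPM in the KO pieces and at 29.4, 14.4, 9.59 and 14.9 CPM in the KO+NM1 pieces (log2 fold change 2.56, standard error 0.36, adjusted p = 0.00162). Endog, a mitochondrial nuclease, was the lower gene, at 3.87 to 4.73 CPM in the KO pieces and 8.86 to 27.0 CPM in the KO+NM1 pieces (log2 fold change -1.98, standard error 0.38, adjusted p = 0.00635). Leaving out KO+NM1 piece 01 gave 5 higher and 2 lower, against 21.7% and 25.1% of all genes.

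In the death receptor branch, 3 of 10 tested genes were higher and 0 lower past both thresholds, against 17.1% and 20.3% of all genes, with a median of 0.14. Leaving out KO+NM1 piece 01 gave 3 higher and 0 lower, against 21.7% and 25.1% of all genes. With all libraries Fas was lower by the adjusted p alone (log2 fold change -0.67, adjusted p = 0.0283). Fasl, the ligand of the receptor Fas, was at 4.37 to 6.37 CPM in the KO pieces, 1.02 CPM in KO+NM1 piece 01 and 0.164 to 0.247 CPM in the others (log2 fold change 3.67, standard error 0.64, adjusted p = 0.00382). Ripk1, a kinase of the receptor complexes, rose by 1.75 on the log2 scale (standard error 0.14, adjusted p = 0.000326), and Tnfrsf10b, the mouse receptor for TRAIL and the remaining higher gene, with 1.17 (adjusted p = 0.00186).

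Of 16 upstream regulators, 5 were higher and 1 lower past both thresholds, against 17.1% and 20.3% of all genes, with a median of 0.22. Without KO piece 01 or 03 the higher genes numbered 2 or 3. Leaving out KO+NM1 piece 01 gave 4 higher and 2 lower, against 21.7% and 25.1% of all genes. E2f1, which drives the cell cycle and can raise BH3-only genes, lay at 75.5, 74.9 and 71.7 CPM in the KO pieces and at 12.8, 10.7, 6.37 and 7.98 CPM in the KO+NM1 pieces (log2 fold change 2.97, standard error 0.24, adjusted p = 0.000379). Myc rose by 1.67 on the log2 scale (standard error 0.25, adjusted p = 0.00205). Trp53, the gene of p53, named after its values were seen, lay at 247, 226 and 216 CPM in the KO pieces, at 168 CPM in KO+NM1 piece 01 and at 66.8, 51.3 and 77.9 CPM in the others (log2 fold change 1.33, adjusted p = 0.0272). With all libraries the lower gene was Foxo1, at 20.5, 25.8 and 23.5 CPM in the KO pieces and at 162, 95.2, 88.9 and 99.0 CPM in the KO+NM1 pieces (log2 fold change -2.26, standard error 0.24, adjusted p = 0.000836).

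**Figure D4:**
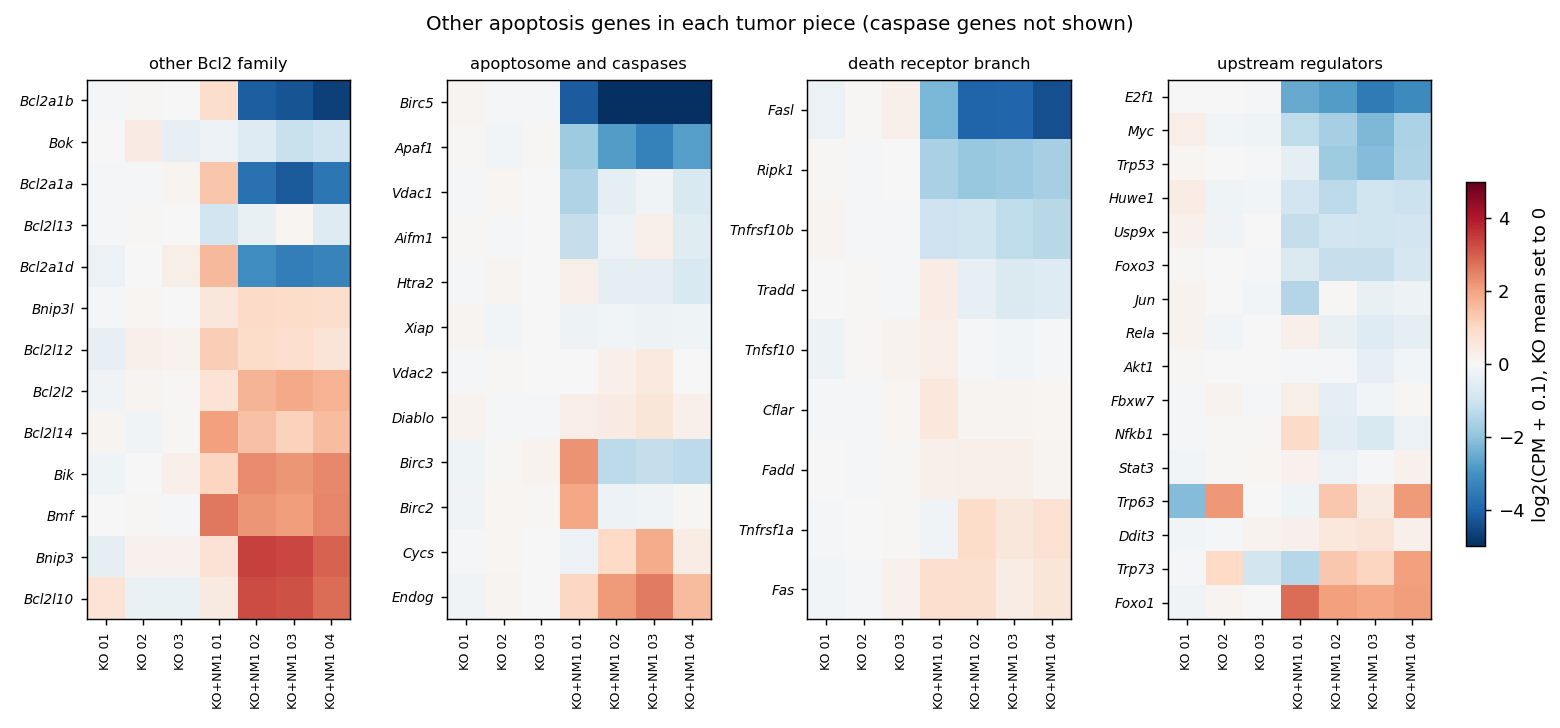
Heatmaps of tested genes of the other 4 apoptosis lists in each piece, caspase genes not shown, as log2(CPM + 0.1) with the mean of the 3 KO pieces set to 0 (colour scale saturating at -5 and 5, red above and blue below the KO mean), ordered by the fitted log2 fold change. Birc5, Apaf1 and E2f1 are blue in all 4 KO+NM1 pieces, and the Bcl2a1 copies and Birc3 are red in KO+NM1 piece 01 and blue in pieces 02 to 04.

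For each member, the gene among 64 others of the family and the apoptosis lists with the most similar log2 CPM over the 7 libraries was sought by Pearson's r, and the values are a description over libraries that share the contrast between the tumors and KO+NM1 piece 01. Bak1 was most like E2f1 (r = 0.997), Bax and Bid were most like each other (r = 0.997), and Pmaip1 was most like Bax (r = 0.987). Mcl1 was most like Birc3 (r = 0.972), an inhibitor of apoptosis that NF-kB induces and that lay at 259 CPM in KO+NM1 piece 01 and at 22.2 to 61.6 CPM elsewhere. Bcl2 was most like Foxo1 (r = 0.941), Bcl2l11 most like Trp53 (r = 0.959), Bbc3 most like Bnip3l (r = 0.953), Bcl2l1 most like Bcl2l10 (r = 0.984) and Bad most like Aifm1 (r = 0.929). The r with Bcl2l10 rests on few counts of that gene, 3 over the KO pieces and 69 over the KO+NM1 pieces.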

How the data were processed

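RNA-seq counts of 3 KO and 4 KO+NM1 tumor pieces were analysed. The authors trimmed reads with Trimmomatic 0.36, aligned them to GRCm38 (mm10) with HISAT2 2.0.4, sorted them with SAMtools 0.1.19 and counted them with HTSeq-count. The deposited values are raw read counts per Ensembl gene. Annotation release and strand option are not given in the sources used here. Symbols, loci and exon lengths came from GENCODE M21. In R 4.3.3, edgeR 4.0.16 filtered low genes (filterByExpr, minimum count 10), scaled libraries by TMM and ran the quasi-likelihood test of KO over KO+NM1. P-values were adjusted by Benjamini and Hochberg's method across 16887 genes. Calls needed an adjusted p below 0.05 together with a 2-fold change. Standard errors came from the quasi-likelihood fit, and 95% intervals from its degrees of freedom. Correlations used log2 CPM with a prior count of 2. Pairs of pieces within a tumor gave chi-square values of 35.2 to 687 for each degree of freedom, so none was a repeat. Named were the 10 members, Myo1c and, from each other list, the 2 largest called rises and falls, of which 1 is not reported here. Members and lists were chosen with earlier results of these data known. Alternatives were other scalings, filters and tests (DESeq2 1.42.0, voom of limma 3.58.1, glmTreat), the piece number as a block and each library left out. The steps were tested on simulated data.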

Additional observations from a re-analysis of the deposited data

Results flagged for a closer look

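Dixon's ratio, the gap between the outermost piece and its neighbour divided by the whole range, was computed over the 4 KO+NM1 pieces for 25 values, and 9 passed the 95% critical value for 4 samples, with piece 01 the outermost in all 9. Chance alone gives about 1 in 20 such groups, and the 25 values are not independent. Among the members the ratio was 0.967 for Pmaip1, 0.963 for Mcl1, 0.907 for Bax, 0.902 for Bid and 0.897 for Bcl2, each higher in piece 01. It was 0.904 for Fasl and 0.861 for Foxo1, also higher there. For the within-library ratio of Bax to Bcl2l1 it was 0.965, with piece 01 above the others, and for that of Bcl2l1 to Mcl1 0.921, with piece 01 below. The same piece held the B and plasma cell markers at 5756 CPM, and their part in these values was not tested.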

How the results depend on the processing

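Over 17 alternatives the log2 fold change of Bak1 ran from 1.44 to 1.76 and passed the adjusted p in each. Bcl2 stayed negative in each and lost its call with glmTreat (adjusted p = 0.0597), with the replicate block (0.0691) and without KO piece 01 (0.0569). Bbc3 stayed negative in each, lost its call with glmTreat (0.565), and fell short of 2-fold with library size alone (-0.81) and without KO+NM1 piece 02 (-0.95). Members higher in the KO pieces numbered 3 with voom. By the adjusted p alone they numbered 6 with voom, Mcl1 among them (adjusted p = 0.0187). All genes were counted for voom only past both thresholds, so the 6 members have no background share beside them. Members lower numbered 1 with library size alone, 1 with the replicate block (also 1 by the adjusted p alone) and 0 with glmTreat (also 0 by the adjusted p alone), while the quasi-likelihood test had the same 3 members, Bak1, Bcl2 and Bbc3, past an unadjusted p of 0.05. With glmTreat 1707 genes in all were higher and 2074 lower, against 2882 and 3424. The counts of all genes were 4096 higher and 3991 lower with voom, and 3401 and 2977 with library size alone. With the upper quartile they were 2461 and 3826, and with the replicate block 2437 and 2493. Leaving out 1 library gave 1 to 3 members higher and 1 to 2 lower, where 2174 to 3603 of all genes were higher and 2811 to 4172 lower. By the adjusted p alone it gave 1 to 5 members higher and 1 to 3 lower, and 3 to 9 did not overlap. The largest of these last counts came without KO+NM1 piece 01. There 35.8% of all genes were higher and 36% lower by the adjusted p alone, and 77.9% did not overlap. In the other lists, leaving out 1 library gave 0 to 3 other family genes higher, 1 to 2 caspase and apoptosome genes lower and 2 to 4 upstream regulators higher with 1 to 2 lower. Upstream regulators numbered 3 higher with the upper quartile, 2 higher with glmTreat and 2 lower with voom, and other family genes 3 higher with voom and 3 lower with glmTreat. The log2 fold change of Mcl1 ran from -0.45 to 0.23 and that of Bad from -0.098 to 0.23 when 1 library was left out. The sign of Mcl1 turned with voom (0.37) and without KO+NM1 piece 01 (0.23), and that of Bad with the upper quartile (-0.0098), with voom (-0.00058), without KO piece 01 (-0.034) and without KO+NM1 piece 01 (-0.098). The median of all genes moved to 0.17 with library size alone, -0.16 with the upper quartile and -0.10 with DESeq2's size factors. The cause of these shifts was not tested. The KO and KO+NM1 cells were injected into separate groups of mice, and the sources used here do not say whether piece numbers mark a batch. The correlation of deviations between same-numbered pieces was 0.080, 0.10 and -0.017. The block fit therefore has no documented pairing behind it. Counts of reads limit only the rarest genes, since 3 counts correspond to 0.0991 to 0.148 CPM.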

Other observations

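Hrk and Bcl2l15, the remaining family genes of the list, did not pass the filter on low counts. Hrk, a BH3-only gene of neurons, had 0, 0 and 2 counts in KO pieces 01 to 03 and 1, 2, 8 and 11 counts in KO+NM1 pieces 01 to 04. Bcl2l15 had 2, 5 and 1 counts in the KO pieces and 17, 11, 2 and 7 counts in the KO+NM1 pieces.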
